A study of Mus musculus with 6 samples.

Results

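Transcript levels of 10 mouse genes that encode interferon (IFN)-inducible GTPases were compared between cells that overexpressed 1 or the other of 2 mutants of the nuclear receptor PPARγ2. The genes were chosen by symbol: *Irgm1*, *Irgm2*, *Igtp*, *Iigp1*, *Tgtp1*, *Tgtp2* and *Ifi47* of the immunity-related GTPase (IRG) family, the dynamin-like *Mx1* and *Mx2*, and the very large GTPase *Gvin1*. All 10 were found among the 56884 gene IDs of the deposited tables. RNA was sequenced from PPARγ2 K382Q-overexpressing cells (3 biological replicates, named K382Q cells here) and PPARγ2 K382R-overexpressing cells (3 biological replicates, K382R cells) at day 2 of beige adipocyte differentiation. The glutamine of K382Q resembles acetylated lysine, and the arginine of K382R resembles deacetylated lysine, so the comparison asks which transcripts differ between the mimics of the acetylated and the deacetylated receptor. Both groups came from an immortalised line of stromal vascular cells of mouse subcutaneous white fat, each carried an HA-tagged mouse PPARγ2 from a retroviral pMXs-Puro vector, and both were selected with puromycin. Both received isobutylmethylxanthine, indomethacin, dexamethasone, insulin, T3 and the PPARγ agonist rosiglitazone, and both still had their own *Pparg* gene. No cells with wild-type PPARγ2 or an empty vector were sequenced in the libraries analysed here, so each difference is between the mutants and not from a baseline. The labels do not say whether replicates were separate transductions, so p-values measure the spread between these samples, which may be technical.

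IFN-inducible GTPases are part of cell-autonomous immunity, the defence that a cell mounts by itself once IFN has reached its receptors. The receptors act through JAK kinases on transcription factors that bind GAS and ISRE elements at target promoters, and STAT2 and IRF9 are part of the complex at ISRE elements. IRG proteins gather on the vacuoles in which some intracellular pathogens live. The regulatory IRG proteins (*Irgm1*, *Irgm2*, *Igtp*) sit on host membranes and hold the effector IRG proteins (*Iigp1*, *Tgtp1*, *Tgtp2*, *Ifi47*) inactive there, while the effectors assemble on the vacuole and break it. Mx proteins block viruses, Mx1 in the nucleus and Mx2 in the cytoplasm of rodent cells, and *Gvin1* encodes a very large GTPase of the same IFN response with little known of its action. These genes are known mainly from macrophages and fibroblasts, and cells of fat also induce them when exposed to IFN.

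The regulatory and the effector IRG proteins are told apart by 1 residue in the loop that holds the phosphates of the nucleotide, methionine in the former and lysine in the latter, and the codons of this loop are shown because they define the roles by which the genes are ordered below. They were read from GRCm39 along the coding strand of the GENCODE vM39 canonical transcript, and the capitals mark the codon of that residue.
*Irgm1* (chr11:48757588-48757611, minus strand): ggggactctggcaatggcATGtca
*Irgm2* (chr11:58110521-58110544, plus strand): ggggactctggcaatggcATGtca
*Igtp* (chr11:58097101-58097124, plus strand): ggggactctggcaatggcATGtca
*Tgtp1* (chr11:48878494-48878517, minus strand): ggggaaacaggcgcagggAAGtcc
*Tgtp2* (chr11:48950361-48950384, minus strand): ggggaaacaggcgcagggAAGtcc
*Ifi47* (chr11:48986475-48986498, plus strand): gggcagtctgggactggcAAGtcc
*Mx2* (chr16:97345791-97345814, plus strand): ggggaccagagttctgggAAGagc
*Gvin1* (chr7:105759962-105759985, minus strand): ggcctgcagagctcagggAAGtct
The loop was identical at all bases among the 3 regulatory genes, and identical between *Tgtp1* and *Tgtp2*. *Mx1* had the same 24 bases as *Mx2*, and *Iigp1* also codes for lysine there. Over the whole aligned coding sequence, loop included, 75.6% of bases were identical between *Irgm2* and *Igtp*, 71.3% between *Irgm1* and *Igtp* and 69.4% between *Irgm1* and *Irgm2*. The pair *Tgtp1* and *Tgtp2* shared 1241 of 1245 coding bases, so reads from these bases may not be assigned to 1 of them with certainty.

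Sequences at the starts of the genes are shown as well, given the calls of the members. In K382Q cells 9 of the 10 members were called lower, beside 36.9% of all tested genes. Each window ran from 250 bases before an annotated start to 50 bases from it, and both strands were searched for an ISRE core, a direct repeat of GAAA with any 2 bases between its copies, and for the GAS letters TTCNNNGAA, a palindrome. Over the canonical starts of 21757 protein-coding genes, the ISRE core was found in 835 windows (3.8%) and the GAS letters in 1918 (8.8%). At the canonical starts of the 10 members, the ISRE core was found in 6 (*Irgm1*, *Irgm2*, *Iigp1*, *Tgtp1*, *Tgtp2* and *Ifi47*) and the GAS letters in 5 (the same genes without *Irgm1*). With all annotated starts, *Igtp* and *Mx2* joined the genes with an ISRE core and *Igtp* those with GAS letters, which gave 8 and 6 members. Members had from 1 (*Gvin1*) to 8 (*Irgm1*) distinct starts. The percentages above cover canonical starts alone and do not apply to these 2 counts, for which no share over all genes was taken. *Mx1* and *Gvin1* had neither exact pattern at any start. Copies of GAAA at another spacing, present in the canonical windows of both genes, were not searched for. In 4 windows around members, GAS letters were followed by an ISRE core with first bases 11 apart, and these windows are shown because they are almost the same sequence at separate genes, with the GAS letters and then the ISRE core in capitals.
*Igtp* and *Irgm2*, shared (chr11:58090332-58090361, plus strand): gccatTTCTAGGAActGAAACTGAAAgctg
*Irgm2*, other start (chr11:58105723-58105752, plus strand): gccatTTCCAGGAActGAAACTGAAAgctg
*Tgtp1* (chr11:48883137-48883166, minus strand): gccatTTCCAGGAAtcGAAACTGAAAccta
*Tgtp2* (chr11:48955096-48955125, minus strand): gccatTTCCAGGAAtcGAAACCGAAAccta
The GAS letters began 107 bases before the *Irgm2* start and 66 before a non-canonical *Igtp* start in the shared window, 61 before the other *Irgm2* start, 14 before *Tgtp1* and 89 before *Tgtp2*. This spacing was noticed in the members and then counted: it was present in 4 of 21757 canonical promoters (0.02%), those of *Irgm2*, *Tgtp1*, *Tgtp2* and *Gm12185*, and the last of these shares its start with *Tgtp1*. *Irgm1* had an ISRE core of another form, with overlapping matches that began 30 and 24 bases before its start. Its whole window, with the matches in capitals, shows them in place.
*Irgm1* (chr11:48762198-48762497, minus strand): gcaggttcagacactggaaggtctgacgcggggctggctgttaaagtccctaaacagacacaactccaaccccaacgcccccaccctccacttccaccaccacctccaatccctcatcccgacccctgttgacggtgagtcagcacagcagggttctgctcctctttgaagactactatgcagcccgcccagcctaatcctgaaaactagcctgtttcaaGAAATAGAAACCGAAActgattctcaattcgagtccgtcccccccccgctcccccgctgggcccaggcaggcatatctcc
In the window of *Ifi47*, an ISRE core that began 105 bases before the start ran into GAS letters that began 98 before it, and a separate GAS match began 224 before it. A PPAR response element, searched on both strands as a direct repeat of AGGTCA with any 1 base between its copies, was in no member window and in 10 of the 21757 (0.046%). These are letter matches and no measurement of binding.

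**Figure D1:**
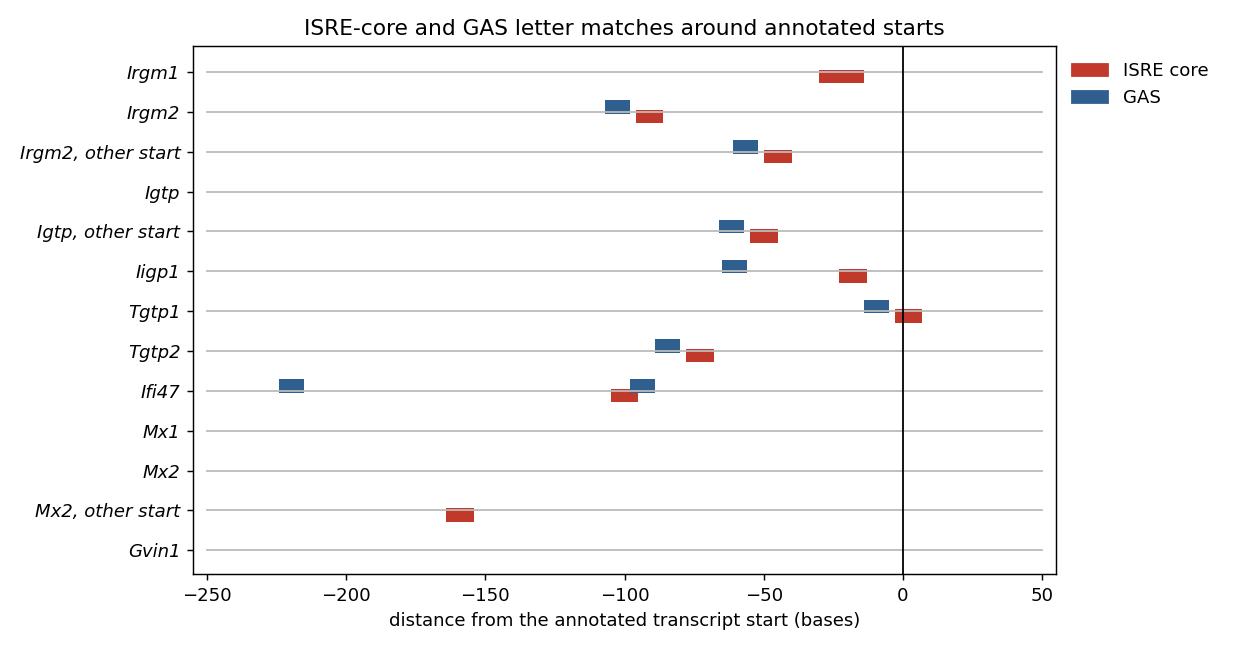
Letter matches to the ISRE core (red) and GAS (blue) by distance in bases from the annotated start of each member, with 0 at the start and negative values before it; grey lines are the windows searched, and a further row is drawn for *Irgm2*, *Igtp* and *Mx2*, whose other starts carry matches. GAS and ISRE blocks lie side by side at *Irgm2*, *Igtp*, *Tgtp1* and *Tgtp2*, and *Irgm1* has ISRE matches alone. *Mx1* and *Gvin1* have no match to either exact pattern, and other spacings of GAAA were not searched for.

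Levels are given as TPM, a share of a library's transcripts per gene length, so that genes can be compared with each other within a library. Fold changes are K382Q against K382R on the log2(TPM + 0.5) scale of limma, which understates the change of low genes. A gene was called at an adjusted p-value under 0.05 and named a DEG when its fold change was also over 2. Aligned depth ranged from 5.95 to 7.50 Gb in K382Q and from 6.53 to 8.15 Gb in K382R libraries, 15426 genes passed the filter on low values, and the median log2 fold change over all of them was -0.14. Of these, 36.9% were called lower in K382Q and 11.1% higher (5698 and 1717 genes), and 2.61% were DEGs lower and 1.27% DEGs higher (403 and 196 genes). With median-ratio scaling, which sets that median to 0, 3153 were called lower and 3057 higher, and 296 were DEGs lower and 287 DEGs higher. Adipocyte genes were abundant, with summed TPM of 8 genes of 54600 to 58200 in K382Q and 45500 to 46700 in K382R, a sum that is mostly *Fabp4* (46400 to 50300 and 37400 to 38500 TPM) and includes the overexpressed *Pparg*. Of 12 leukocyte genes, *Adgre1*, *Tyrobp* and *Cd3e* were listed at 0 in all 6 libraries, and the summed level was 3.76 to 4.99 TPM in K382Q and 4.17 to 6.18 in K382R. Of 8 endothelial genes *Emcn* was listed at 0, and the sum was 1.70 to 2.28 and 1.71 to 1.94 TPM.

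The IFN-inducible GTPases were lower in K382Q cells as a group. Of the 10 members, all passed the filter, 9 were called lower and 7 were DEGs lower, beside 36.9% called lower and 2.61% DEGs lower among all tested genes (48.1% were called in either direction). *Mx1* passed the filter through its K382R libraries alone, and the other 9 through all 6 libraries. In all 10 members every K382Q library was below every K382R library, an arrangement found for 42.8% of all tested genes. For *Mx1*, passing the filter through K382R libraries alone fixed this arrangement, so only the other 9 could have differed. The median log2 fold change of the members was -1.22, beside -0.14 over all genes tested. Summed over the members, the level was 107 ± 4.73 TPM in K382Q and 268 ± 8.62 TPM in K382R cells (mean ± SD, n = 3 each). In such bulk RNA, fewer cells that express these genes and less RNA per cell cannot be told apart.

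**Figure D2:**
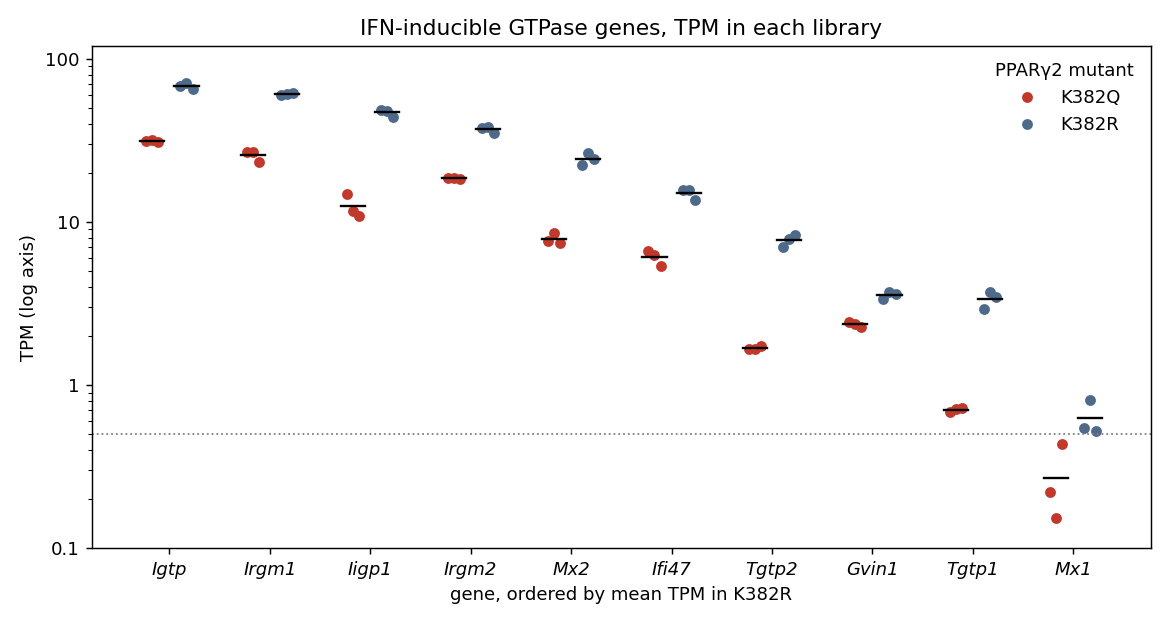
TPM (log axis) of each of the 10 members in every library, with K382Q and K382R replicates as points and the group mean as a line; the dotted line is the filter at 0.5 TPM. The K382Q points lie below the K382R points for each gene, from *Igtp* at 31.1 to 32.0 against 65.0 to 71.6 down to *Mx1* at 0.153 to 0.434 against 0.521 to 0.813.

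The 3 regulatory IRG genes were all called lower in K382Q, and *Igtp* and *Irgm1* were the most abundant members in both groups. *Irgm1* (ENSMUSG00000046879.8, chr11:48752795-48762510, minus strand) encodes a regulator that also takes part in autophagy and mitochondrial upkeep. Its level was 26.9, 27.0 and 23.3 TPM in K382Q replicates 1 to 3 and 60.2, 60.5 and 61.4 TPM in K382R replicates 1 to 3. The K382R libraries were the more even (SD 0.623 against 2.07 TPM), the groups did not overlap, and the mean was 2.36-fold lower in K382Q. The log2 fold change was -1.22 (SE 0.0599, adjusted p = 4.18e-06, 95% interval -1.36 to -1.09). *Irgm1* is on the list of genes that the study itself followed by qPCR. If that list was drawn from these libraries, the qPCR choice and the direction seen here are not independent.

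*Igtp* (ENSMUSG00000078853.9, chr11:58090382-58098417, plus strand), also called Irgm3, encodes the regulator known from endoplasmic reticulum and lipid droplet membranes. It was at 31.4, 32.0 and 31.1 TPM in K382Q and 68.0, 71.6 and 65.0 TPM in K382R libraries, so the highest level of any member in both groups. The log2 fold change was -1.10 (SE 0.0445, adjusted p = 1.95e-06). *Irgm2* (ENSMUSG00000069874.8, chr11:58090444-58113608, plus strand), a regulator of the Golgi, was at 18.7, 18.5 and 18.3 TPM in K382Q and 37.6, 38.3 and 35.1 TPM in K382R libraries. Its K382Q libraries were even (SD 0.2 TPM), and its log2 fold change of -0.98 (SE 0.0482, adjusted p = 4.23e-06) was just short of the fold that names a DEG. The annotated intervals of *Igtp* and *Irgm2* overlap by 7974 bases on the same strand, so some reads could have been split between them. With both summed as 1 gene, an alternative chosen after the data were seen, the log2 fold change was -1.07 (adjusted p = 1.56e-06).

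The 4 effector IRG genes were all DEGs, and their log2 fold changes ran from -1.91 to -1.22. *Iigp1* (ENSMUSG00000054072.13, chr18:60509099-60525706, plus strand), the best studied effector, was at 14.8, 11.7 and 10.9 TPM in K382Q and 48.5, 48.2 and 44.1 TPM in K382R libraries. K382Q replicate 1 was the highest of its group and was still far below the lowest K382R library. The mean was 3.75-fold lower, with a log2 fold change of -1.88 (SE 0.105, adjusted p = 7.34e-06). It was the effector of highest level in every library.

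*Tgtp2* (ENSMUSG00000078921.4, chr11:48948021-48955033, minus strand) was at 1.67, 1.66 and 1.74 TPM in K382Q and 7.05, 7.82 and 8.33 TPM in K382R libraries. Its near-copy *Tgtp1* (ENSMUSG00000078922.10, chr11:48876154-48884999, minus strand) was at 0.680, 0.711 and 0.727 TPM in K382Q and 2.91, 3.73 and 3.49 TPM in K382R libraries. Both encode the T-cell-specific GTPase that marks vacuoles early, and their K382Q means were 21.8% (*Tgtp2*) and 20.9% (*Tgtp1*) of the K382R means. The log2 fold change was -1.91 for *Tgtp2* (SE 0.101, adjusted p = 5.63e-06) and -1.68 for *Tgtp1* (SE 0.139, adjusted p = 4.98e-05). Since *Tgtp1* is low, the constant added before the logarithm pulled its value in, and the log2 ratio of its plain means was -2.26. How the reads of the copies were divided is uncertain, and with both summed (also chosen after the data were seen) the log2 fold change was -2.0 (adjusted p = 3.59e-06).

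*Ifi47* (ENSMUSG00000078920.4, chr11:48967414-48987801, plus strand), the effector also called Irgd, was at 6.68, 6.29 and 5.41 TPM in K382Q and 15.6, 15.7 and 13.6 TPM in K382R libraries. Its mean was 2.44-fold lower, the smallest fold among the effectors, with a log2 fold change of -1.22 (SE 0.0961, adjusted p = 3.89e-05). The third replicate was the lowest of each group, and the groups did not overlap. *Or2v1*, an olfactory receptor gene annotated over a span that covers *Tgtp1*, *Tgtp2* and *Ifi47* and shares the strand of *Ifi47*, was at 0.729 TPM in K382Q and 2.15 TPM in K382R (log2 fold change -1.14, adjusted p = 0.00271). Whether the authors counted reads by strand is not given in the sources used here, so reads of these overlapping genes may not be told apart.

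**Figure D3:**
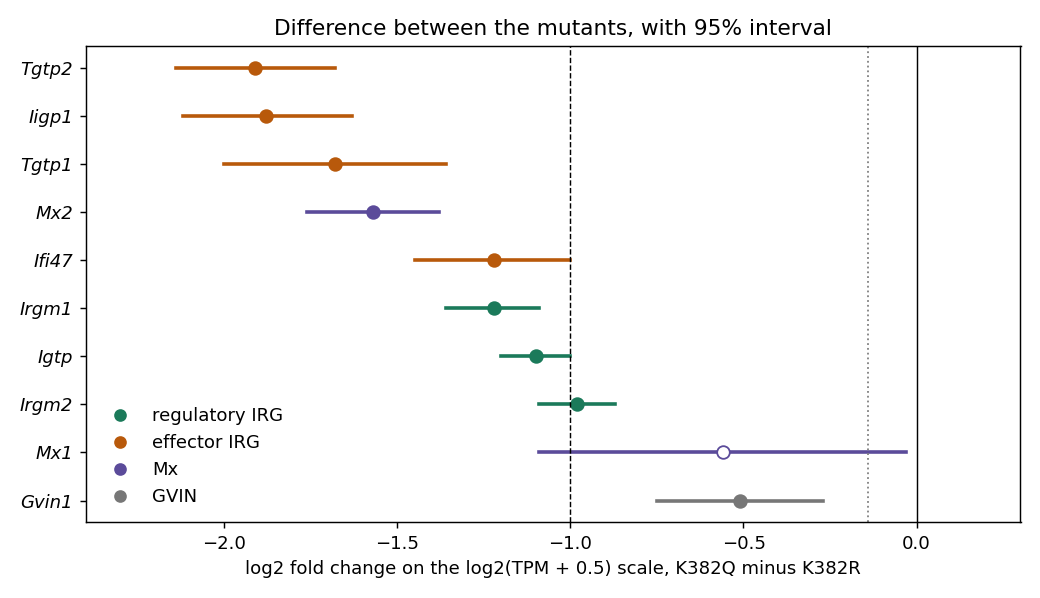
Log2 fold change, K382Q against K382R, of each member with its 95% interval (limma, log2(TPM + 0.5)); filled circles are called and the open circle (*Mx1*) is not. The dashed line is a fold of 2 and the dotted line the median of all genes tested (-0.14); the effectors *Tgtp2* (-1.91), *Iigp1* (-1.88) and *Tgtp1* (-1.68) lie farthest from it and *Gvin1* (-0.51) nearest among the called members.

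Of the dynamin-like pair, *Mx2* (ENSMUSG00000023341.17, chr16:97336508-97362100, plus strand) was the more abundant. It was at 7.67, 8.57 and 7.48 TPM in K382Q and 22.4, 26.5 and 24.4 TPM in K382R libraries. The groups were apart by more than their spread, and the mean was 3.09-fold lower (log2 fold change -1.57, SE 0.0813, adjusted p = 5.39e-06). *Mx1* (ENSMUSG00000000386.19, chr16:97248235-97264107, minus strand) was at 0.220, 0.153 and 0.434 TPM in K382Q and 0.548, 0.813 and 0.521 TPM in K382R libraries. These are values near the filter, with K382Q replicate 3 close to the lower K382R libraries and a coefficient of variation of 54.4% in K382Q. The log2 fold change of *Mx1* was -0.56 (SE 0.228, 95% interval -1.09 to -0.03), which did not pass the threshold in limma (adjusted p = 0.0778). In the annotation both *Mx2* transcripts that have a coding sequence are marked as carrying a loss of function in the reference genome. The one whose loop is printed above has 1969 coding bases, which is no whole number of codons. Read straight from its first base, it held 13 stop codons, and shifts of frame along it were not followed. For *Mx1*, 2 of 10 transcripts are so marked.

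*Gvin1* (ENSMUSG00000045868.13, chr7:105755763-105814533, minus strand), whose coding sequence of 7281 bases is in 1 segment, had the smallest fold change of the called members. Differences between members were not tested. It was at 2.44, 2.37 and 2.27 TPM in K382Q and 3.35, 3.73 and 3.64 TPM in K382R libraries. Its groups did not overlap, and K382Q stood at 66.0% of the K382R mean (log2 fold change -0.51, SE 0.103, adjusted p = 0.00465). *Gvin2*, its neighbour and relative, was at 2.46 ± 0.121 TPM in K382Q and 3.67 ± 0.300 TPM in K382R (log2 fold change -0.49, adjusted p = 0.00696).

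The makeup of the group also differed between the mutants. Regulatory IRG transcripts summed to 75.7 ± 2.64 TPM in K382Q and 166 ± 4.0 TPM in K382R, which was 69.3 to 71.5% and 61.6 to 62.3% of the member sum. Effector transcripts summed to 21 ± 2.55 TPM in K382Q and 73.0 ± 3.08 TPM in K382R, or 18.5 to 21.5% and 26.8 to 27.8%. The effectors thus held a smaller share in every K382Q library than in any K382R library. The Mx pair held 7.10 to 8.01% in K382Q and 8.62 to 9.86% in K382R, and *Gvin1* 2.17 to 2.23% and 1.26 to 1.40%. These shares were described and not tested.

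In K382R cells the order from the highest level was *Igtp*, *Irgm1*, *Iigp1*, *Irgm2*, *Mx2*, *Ifi47*, *Tgtp2*, *Gvin1*, *Tgtp1* and *Mx1*, and the replicate ranges of *Gvin1* and *Tgtp1* overlapped, the 1 pair of neighbours to do so. In K382Q cells the order was *Igtp*, *Irgm1*, *Irgm2*, *Iigp1*, *Mx2*, *Ifi47*, *Gvin1*, *Tgtp2*, *Tgtp1* and *Mx1*, with no overlap between the ranges of neighbours. *Iigp1* thus stood above *Irgm2* in K382R cells and below it in K382Q cells, and *Gvin1* stood above *Tgtp2* in K382Q cells alone.

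The 5 genes outside the group whose profile over the 6 libraries was nearest to the members' median profile were *Maoa*, *Cmpk2*, *Rsad2*, *Enpp2* and *Zfp365*. Likeness was measured as the root mean square distance of centred log2(TPM + 0.5) values, and it was 0.0409 for *Maoa* (monoamine oxidase A), 0.0433 for *Cmpk2* (a nucleotide kinase), 0.0442 for *Rsad2* (viperin), 0.0519 for *Enpp2* (autotaxin) and 0.0528 for *Zfp365*. *Maoa* was at 21.1 TPM in K382Q and 51.6 TPM in K382R, *Rsad2* at 16.4 and 38.2, and *Cmpk2* at 5.44 and 13.7. With 6 libraries in 2 groups, such a profile says little more than the size of the difference between the groups.

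Of 19 other IRG and GVIN genes listed, 14 were in the tables and 8 passed the filter, and all 8 were called lower in K382Q (median log2 fold change -1.04). Of these 8, *Gm4841*, *9930111J21Rik1* and *9930111J21Rik2* passed the filter through their K382R libraries alone, which in part fixed their direction, and 6 were called when 1 TPM was required. These 3 were named after their values were seen. The 3 of highest level were *Irgq*, a relative without known GTPase activity, at 8.40 ± 0.582 TPM in K382Q and 10.7 ± 0.948 in K382R (log2 fold change -0.33, adjusted p = 0.0159), *Gm4951* at 1.72 ± 0.381 and 8.72 ± 1.17 (log2 fold change -2.06, adjusted p = 3e-05) and *Gm12250* at 3.33 ± 0.589 and 6.75 ± 0.847 (log2 fold change -0.93, adjusted p = 0.000986). The call of *Irgq* was lost with FPKM, with either scaling and in 3 of the 6 fits that left out a library, and 7 of the 8 genes were called with median-ratio scaling or quantile normalization. The guanylate-binding proteins, the other large family of IFN-inducible GTPases and partners of the IRG proteins at vacuoles, had 10 of 11 genes tested and 10 called lower (median log2 fold change -1.15). Their summed level was 104 to 113 TPM in K382Q and 239 to 264 TPM in K382R, and *Gbp3*, *Gbp2* and *Gbp6* fell by 1.44, 1.20 and 0.93 on the log2 scale.

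Of the 10 tested dynamin superfamily genes that IFN does not induce, 4 were called lower (*Dnm2*, *Mfn1*, *Mfn2* and *Atl2*), with a median log2 fold change of -0.09, and with median-ratio scaling 0 were called lower and 1 higher in limma (*Atl3*, at 0.13). *Dnm2*, the dynamin of endocytosis, was at 86.2 TPM in K382Q and 98.5 TPM in K382R (log2 fold change -0.19, adjusted p = 0.00144), *Mfn2*, which fuses mitochondria, at 68.8 and 80.8, and *Atl3*, an atlastin of the endoplasmic reticulum, at 151 and 153 (log2 fold change -0.02, adjusted p = 0.763). Genes that guide IRG proteins to vacuoles, from the autophagy conjugation system and its ubiquitin readers, had 8 of 12 called lower and 2 higher, *Gabarap* and *Map1lc3a* (median log2 fold change -0.19), and 3 lower with median-ratio scaling. Among them *Sqstm1*, a ubiquitin reader, was at 666 TPM in K382Q and 844 TPM in K382R (log2 fold change -0.34), *Ubqln1* at 172 and 218 (-0.34), and *Gabarap*, a ubiquitin-like protein of the autophagosome, at 245 and 217 (0.18, adjusted p = 0.00204). *Mfn1*, *Atl2* and *Map1lc3a* were named after their values were seen.

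Of 18 listed ligands, receptors and signalling genes, 14 were tested, 13 were called lower (10 with median-ratio scaling), with a median log2 fold change of -0.36, and *Tyk2* alone was not called (log2 fold change -0.11, adjusted p = 0.231). *Stat2* was at 26.9 ± 1.17 and 49.8 ± 0.596 TPM (log2 fold change -0.87, adjusted p = 4.64e-06), and *Irf9*, which completes the complex that binds ISRE elements, at 35.1 ± 1.97 and 52.0 ± 0.549 TPM (log2 fold change -0.56, adjusted p = 5.86e-05). The receptor chain *Ifngr1* was at 108 TPM in K382Q and 136 TPM in K382R (log2 fold change -0.33), and the kinase *Jak1* at 100.0 and 119 (-0.24). *Irf1*, an early IFN-induced transcription factor, differed little, at 72.0 ± 1.69 and 78.9 ± 0.647 TPM (log2 fold change -0.13, adjusted p = 0.0118), and its direction turned to 0.02 with median-ratio scaling and 0.03 with quantile normalization. *Usp18*, an IFN-induced brake on the type I receptor, was the 1 DEG of this list and was picked out after its values were seen (22.4 ± 1.72 and 67.2 ± 2.76 TPM, log2 fold change -1.56, adjusted p = 1.86e-06). *Ifng* was listed at 0 in all 6 libraries, and *Ifnb1* was listed at 0 in the 3 K382Q libraries and at 0.084, 0.117 and 0.141 TPM in the K382R libraries, below the filter.

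**Figure D4:**
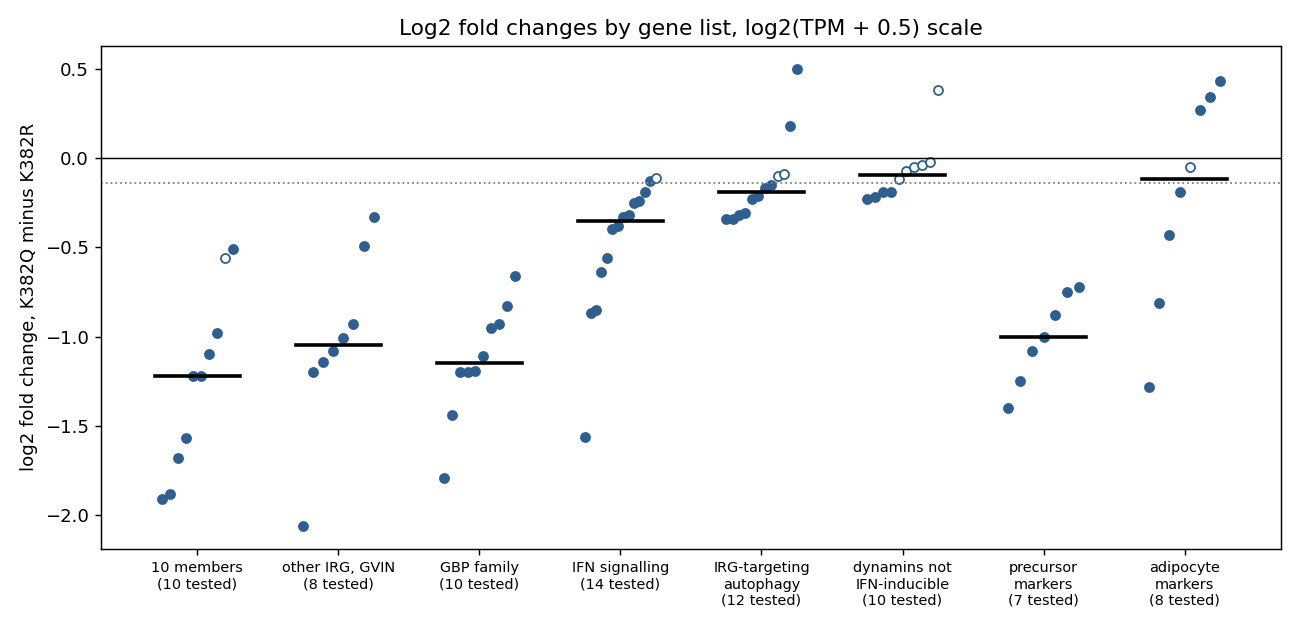
Log2 fold change, K382Q against K382R, (log2(TPM + 0.5) scale) of every tested gene among the members and in 7 lists beside them, with 1 point per gene (filled where called) and the median of each list as a bar; the dotted line is the median of all genes tested (-0.14). The medians of the members (-1.22), their relatives (-1.04), the GBP family (-1.15) and the precursor markers (-1.0) lie below those of the dynamins that IFN does not induce (-0.09) and the IFN signalling genes (-0.36), while single genes of these lists overlap.

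Adipocyte precursor markers were lower in K382Q, as the members were, while adipocyte markers went both ways. Of 10 adipocyte precursor genes 7 were tested, all 7 were lower in K382Q (median log2 fold change -1.0), and their summed level was 536 to 579 TPM in K382Q and 928 to 966 TPM in K382R, with *Dpp4* listed at 0. *Ly6a*, itself inducible by IFN, was at 467 and 767 TPM (log2 fold change -0.72), *Col1a1* at 45.5 and 91.1 (-1.0) and *Col1a2* at 28.0 and 59.8 (-1.08). Of 8 adipocyte genes 4 were called lower and 3 higher, the latter being 1 with quantile normalization. *Fabp4*, *Cidec* and *Cd36* had log2 fold changes of 0.34, 0.27 and 0.43, and with quantile normalization *Fabp4* (0.0) and *Cidec* (0.07) lost their calls. The call of *Fabp4* was also lost with no filter. The lower genes, named after their values were seen, were *Adipoq* (adiponectin, -1.28, from 360 to 148 TPM, the 1 DEG of the list), *Cebpa* (-0.81), *Pparg* (-0.43) and *Lpl* (-0.19). Total *Pparg* RNA, vector and endogenous together, was thus itself lower in K382Q. It was at most 1330 TPM, against at least 1590 TPM in K382R (adjusted p = 0.000977 in limma). In Western blots, the study reported broadly similar amounts of both mutant proteins. The part of these markers and of the *Pparg* level in the members' difference was not tested. Of the leukocyte and endothelial genes 2 of 12 and 1 of 8 passed the filter, *Cd68*, *Fcer1g* and *Pecam1*, with log2 fold changes of -0.01, -0.52 and 0.15 and adjusted p of 0.981, 0.443 and 0.449. Without K382R replicate 1, in which it was listed at 0, *Fcer1g* was called lower in limma (log2 fold change -1.11). *Cd68*, the leukocyte gene of highest level, was at 4.08 ± 0.614 TPM in K382Q and 4.14 ± 0.967 TPM in K382R.

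The 9 called members stayed called in limma under every alternative that was run for them, including each library left out in turn. *Igtp* was no DEG with median-ratio scaling or quantile normalization, where 6 members were DEGs, and *Irgm2* became one without K382R replicate 3, where 8 were. *Mx1* was called only without the intensity trend (adjusted p = 0.0391, range 0.0391 to 0.214 over its 14 alternatives).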

How the data were processed

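Total RNA of 6 libraries was sequenced. The authors aligned reads to GRCm39 with HISAT2 and quantified genes with StringTie (versions and tools per the submitters' notes and methods; the annotation release is not given in the sources used here). The authors deposited 1 table per library with coverage (mean read depth per base, a signal without normalization), FPKM and TPM. Values of repeated gene IDs (3 to 5 rows per library) were summed. Depth was read as coverage divided by FPKM; counts were not analysed here, so no counting interval is given and precision is that of 3 replicates.

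The test was limma 3.58.1 in R 4.3.3 with a variance trend on intensity, run on log2(TPM + 0.5) for the 15426 genes that reached 0.5 TPM in 3 or more libraries, and p-values were adjusted by Benjamini-Hochberg over all of them. The smallest two-sided exact permutation p for 3 against 3 is 0.1, so single values were not tested so. On data simulated from these libraries, 187 of 200 changed genes were recovered as DEGs. These were 97 of 100 at a log2 change of 2 and 90 of 100 at 1.5, with 1 false DEG. Smaller changes and calls on the adjusted p-value alone were not simulated, so no error rate is given for them. Sequences were read from GRCm39 with GENCODE vM39, which holds 99.0% of the gene IDs. At most 0.0145% of values were identical between libraries, so none was a duplicate.

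Genes named by rule were all members, tested genes overlapping a member, and the 5 nearest profiles. From each other list the rule took the 3 tested genes of highest mean TPM, with *Stat2*, *Irf9* and *Irf1*. Other genes given with values were added outside this rule. They include *Gvin2*, *Tyk2* and the genes marked above as named or picked out after their values were seen. Members and lists were chosen with earlier results of these data known. The closing section gives the alternatives. Protein sequences were not used here, and the result of 1 further gene named by the rule is not reported here.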

Additional observations from a re-analysis of the deposited data

How the results depend on the processing

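Settings were changed 1 at a time: the pseudocount (1 or 0.1), the filter (none, or 1 TPM), the unit (FPKM), the scaling (median-ratio or quantile), the variance model (without its trend), the replicate block, the fold (over 1.5) and the libraries (each left out). The 9 called members were called under each of them, and the median of the members stayed between -1.27 and -1.07. Over all genes, 3153 were called lower and 3057 higher with median-ratio scaling and 3241 and 2954 with quantile normalization. DEGs lower were 227 with FPKM, and a fold over 1.5 gave 1287 DEGs lower and 577 higher. Of the dynamins not induced by IFN, 2 were called lower with FPKM, 0 with median-ratio or quantile scaling, and 1 higher with each of these 2. Of the autophagy genes, 5 were called lower with FPKM and 3 under either scaling. Leukocyte genes called lower ranged from 0 to 1 when libraries were left out, with 1, *Fcer1g* (log2 fold change -1.11), without K382R replicate 1. An endothelial gene was called lower with no filter (1), and 1 adipocyte gene was called higher with quantile normalization. *Irf1* turned to 0.02 with median-ratio scaling and 0.03 with quantile normalization. *Atl3* turned to 0.07 (FPKM), 0.13 (median-ratio scaling) and 0.09 (quantile normalization), and ranged from -0.06 to 0.02 with libraries left out (0.02 without K382Q replicate 2). *Cd68* turned to 0.06, 0.13 and 0.12 under the same 3 settings, and ranged from -0.16 to 0.14 with libraries left out (0.10, 0.01 and 0.14 without K382Q replicate 1, K382R replicate 1 and K382R replicate 2). The call of *Irgq* was lost with FPKM, both scalings and without K382Q replicate 2, K382Q replicate 3 or K382R replicate 2 (log2 fold changes -0.3 to -0.18). The cause of these changes was not tested.

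Replicates with the same number did not deviate together (correlations -0.018, 0.051 and 0.022), so the numbers do not pair the samples. With the replicate number as a block, 9 members were called lower and 7 were DEGs lower, and 5387 genes were called lower and 1600 higher. *Mx1* had the lowest level and the widest relative spread in K382Q of the members, and its statement is limited to that extent.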
